A study of Homo sapiens with 2 samples.

Results

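The genes described here are the MYC family of transcription factors and their partners: MYCN, MYC and MYCL, their dimer partner MAX, the MAX-binding repressors MXD1, MXI1 and MNT, and the MAX-like factor MLX. They were chosen by gene symbol, and all 8 symbols were found among the 36027 genes of the count table. The cells were SK-N-BE(2)-C, an established human neuroblastoma line known to carry extra copies of MYCN, and both libraries came from the same derivative with a doxycycline-inducible gene for HRASV12, an active mutant of the small GTPase HRAS. For the HRASV12 induced library, doxycycline (100 ng/ml) was present over 13 days. The uninduced control library came from untreated cells that carried the same construct. There was 1 library per group, so no difference could be tested, and an effect of doxycycline itself cannot be told apart from that of HRASV12. The labels do not say whether the line was 1 clone or a pool, or which promoter drives the transgene. Counts of HRAS do not separate the mutant from the cell's own gene.

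MYC proteins bind DNA as dimers with MAX, preferentially at the sequence CACGTG, called an E-box, and activate genes for ribosome production, nucleotide synthesis and cell division. MXD1, MXI1 and MNT compete for MAX and repress at the same sites, and MLX forms a parallel branch with the glucose-responsive factors MLXIP and MLXIPL. In neuroblastoma, amplified MYCN marks aggressive tumours, and neuroblastoma cells usually express either MYCN or MYC at a high level.

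Because this network reads E-boxes, the promoters of the genes were searched for CACGTG, which is its own reverse complement, so both strands were covered. RefSeq promoters (GRCh38.p14, 250 bases before to 50 after each listed start, 300 in all) were listed for 7 of the 8 members, MYC not among them. Of these, 2 held the E-box, MNT and MLX, against 8.77% of the 27305 genes with a listed promoter. Their sites are printed with 12 bases on either side and 5′ to 3′ on the gene's strand, with the E-box in capitals. After them stand the sites of FBL, UTP20 and HSPD1, growth genes that were lower in the induced library, and of IMP4 and G6PC3, which were higher and held 2 sites each, of which 1 is printed. A match of 6 letters describes the sequence only.
MNT, chr17:2401236-2401265, minus strand: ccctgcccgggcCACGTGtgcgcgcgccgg
MLX, chr17:42567038-42567067, plus strand: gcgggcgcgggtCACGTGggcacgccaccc
FBL, chr19:39846356-39846385, minus strand: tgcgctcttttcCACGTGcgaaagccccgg
UTP20, chr12:101280083-101280112, plus strand: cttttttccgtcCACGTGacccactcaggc
HSPD1, chr2:197500345-197500374, minus strand: cggccctggcgaCACGTGaaaaaatcaccc
IMP4, chr2:130342900-130342929, plus strand: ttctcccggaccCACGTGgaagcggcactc
G6PC3, chr17:44070650-44070679, plus strand: tagccggctgccCACGTGcctgcaacagtg

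The induced library held 666 cells and 80359736 counts (median 111582 per cell) and the control library 956 cells and 95350640 counts (median 85821), with no cell barcode shared. Levels are counts summed over the cells of a library and scaled to its total (CPM). Intervals are 95% intervals, and those of levels and ratios cover counting error only, not variation between cells, cultures or libraries. Intervals of shares of cells treat the cells as independent draws and leave out variation between cultures and libraries. Unless stated, values per cell come from cells thinned at random to 53000 counts, which left 562 induced and 766 control cells. Of the 12 adrenergic neuroblastoma markers, 11 reached 10 CPM in at least 1 library, with summed levels of 4446 CPM in induced and 4613 CPM in control cells. Of 7 immune markers, 5 were found in the table, and they summed to 4.93 and 5.07 CPM, with none at 10 CPM. Fibroblast markers summed to 331 and 167 CPM, most of it THY1. Endothelial markers summed to 73.1 and 105 CPM, most of it EGFL7 (53.4 and 96.4 CPM), and not all shared its direction. ESAM (10.7 and 3.22 CPM), CDH5 (2.63 and 0.965), KDR (1.92 and 0.157) and PECAM1 (3.97 and 3.07) were higher in induced cells. VWF was close (0.324 and 0.294 CPM) and CLDN5 lower (0.212 and 0.430 CPM). The 5th percentile of the mitochondrial share was 1.44% in induced and 8.52% in control cells.

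MYCN (ENSG00000134323.12), the oncogene of this line, stayed abundant in both libraries and was lower in the induced library. It stood at 397 CPM in induced cells (31864 counts, interval 392 to 401) and 480 CPM in control cells (45787 counts, 476 to 485), a ratio of 0.826 (0.814 to 0.838) and a log2 ratio of -0.28. The difference lay within 1.5-fold, and its size depended on the scaling, from -0.12 with DESeq2 size factors to -0.37 with totals without ribosomal protein and mitochondrial genes. By the 1.5-fold rule, which takes log2 ratios with a pseudocount of 1 CPM among genes that reached 10 CPM in 1 or both libraries, 0 of the 5 members that passed the filter were called, beside 10.3% of 9017 genes called higher and 7.73% called lower. The 5 were MYCN, MAX, MXI1, MNT and MLX.

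**Figure D1:**
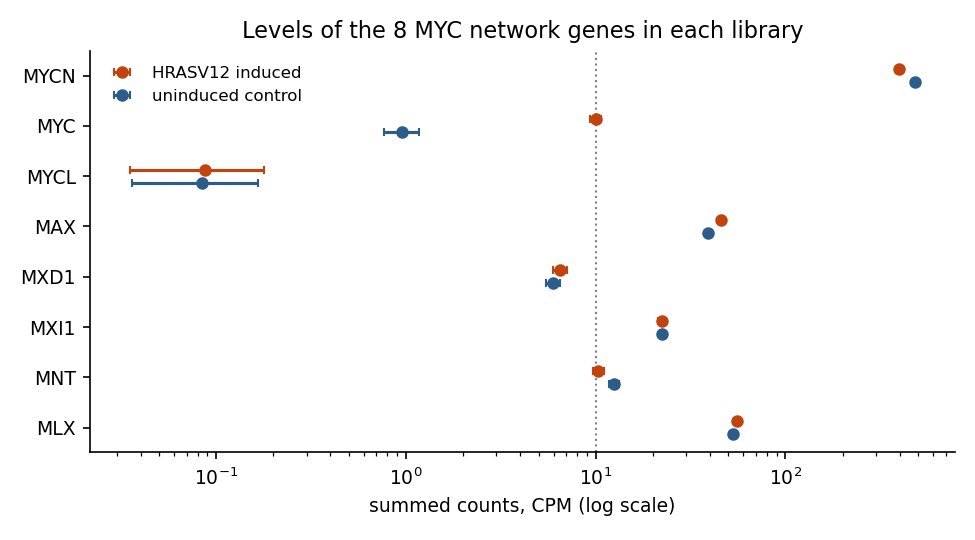
Summed level of each of the 8 genes in CPM (log axis) in the HRASV12 induced and the uninduced control library; bars are exact 95% Poisson intervals of the counts and the dotted line marks 10 CPM. MYC stands apart between the libraries, at 9.99 against 0.954 CPM, while the other genes lie close together.

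MYC (ENSG00000136997.19), the relative that most proliferating tissues use, had the largest difference among the 8 genes and lay just under the filter. It stood at 9.99 CPM in the induced library (803 counts, interval 9.31 to 10.7) and 0.954 CPM in the control library (91 counts, 0.768 to 1.17), a ratio of 10.5 (8.42 to 13.2) and a log2 ratio of 2.49. It passed the 10 CPM filter, as the only member called, with TMM or DESeq2 scaling, with totals without ribosomal protein and mitochondrial genes, and with the mean of per-cell CPM. Among 11220 genes that reached 5 CPM in 1 or both libraries, a floor set after the value was seen, 1.02% were at least 4-fold higher. MYCL (ENSG00000116990.11), the other relative, was close to absent, with 7 induced and 8 control counts (0.0871 and 0.0839 CPM).

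Both genes were uneven between cells. At fixed depth the induced cells held a median of 17 MYCN counts, a 5th percentile of 0, a 95th of 58 and a highest cell of 232. Control cells held a median of 21 counts, with a 5th percentile of 5, a 95th of 63 and a highest cell of 244. The standard deviation of MYCN counts over cells was 1.03 times the mean in induced and 0.799 times in control cells. Intervals of summed levels leave out this spread, so they are too narrow for differences between groups of cells. The upper ends were alike and the lower ends were not: 32 of 562 induced cells had no MYCN count (5.69%, Clopper-Pearson interval 3.93 to 7.94) against 7 of 766 control cells (0.914%, 0.368 to 1.87). With all counts kept, 45 of 666 induced and 9 of 956 control cells had none.

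**Figure D2:**
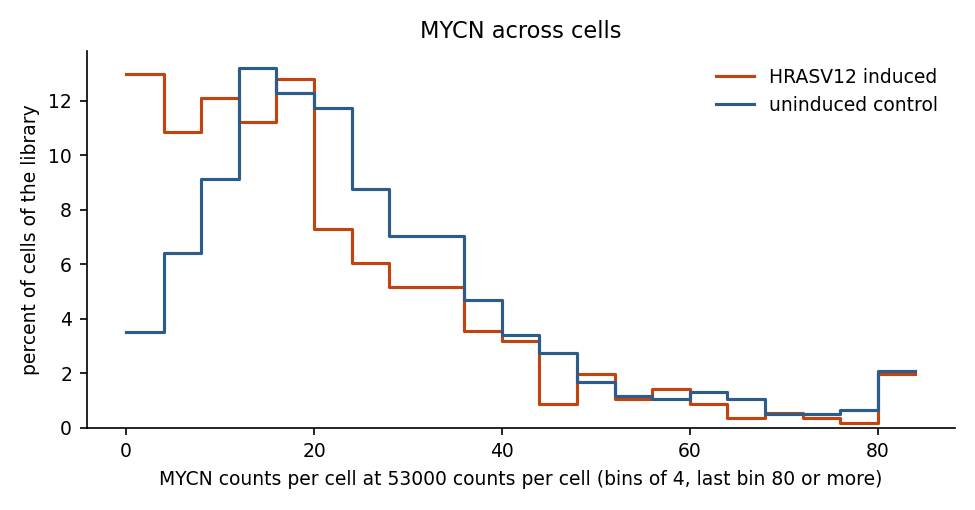
Percent of the cells of each library by MYCN counts per cell, in bins of 4 counts at 53000 counts per cell; the last bin holds cells with 80 or more. The induced library has 13.0% of its cells in the lowest bin and the control library 3.52%, and the lines run close together above 40 counts.

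MYC was present in few cells. At fixed depth 124 of 562 induced cells held at least 1 MYC count (22.1%, 18.7 to 25.7). Of 766 control cells, 25 held one (3.26%, 2.12 to 4.78), and the median totals before thinning were 124339 and 106438. Without thinning the shares were 34.1% of 666 and 5.65% of 956 cells. No cell type known to lack MYC was available to set the level of free RNA. With all counts kept, the 10 cells richest in MYC held 26.5% of the induced MYC counts, and no induced cell had more than 25. In the control library, 10 cells held 42.9% of its 91 counts.

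Across induced cells, MYC was higher where MYCN was lower. In the 32 cells with no MYCN count, MYC stood at 41.9 CPM (interval 32.7 to 52.8). The level was 18.4 CPM (13.2 to 25.1) in the 41 cells with 1 to 3 MYCN counts and 17.9 CPM (14.3 to 22.0) in the 94 cells with 4 to 9. It was 5.33 CPM (3.93 to 7.06) in the 170 cells with 10 to 19, 5.06 CPM (3.63 to 6.86) in the 153 cells with 20 to 39 and 1.05 CPM (0.286 to 2.68) in the 72 cells with 40 or more. The intervals of the bins 1 to 3 and 4 to 9 overlapped, as did those of 10 to 19 and 20 to 39. The other steps were larger than the counting error, which leaves out the spread between cells. A MYC count was found in 16 of the 32 cells of the lowest bin and in 4.17% of the cells of the highest.

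In control cells MYC was too sparse for such a description: 4 counts in 1 of the 7 cells with no MYCN, 2 counts in the 20 cells with 1 to 3, no count in the 79 cells with 4 to 9, 22 counts in 235 cells with 10 to 19, 14 counts in 301 cells with 20 to 39 and no count in 124 cells with 40 or more. A count of 0 in those 124 cells allows up to 0.561 CPM by the exact interval.

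**Figure D3:**
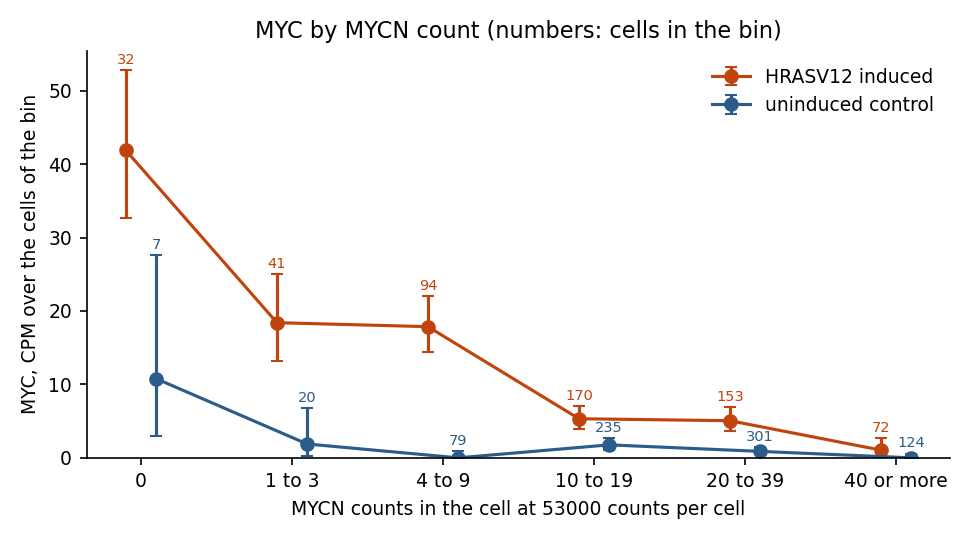
MYC level in CPM over the cells of each MYCN count bin, at 53000 counts per cell; bars are exact 95% Poisson intervals and the small numbers give the cells in each bin. In the induced library the points step down from 41.9 CPM in cells without MYCN to 1.05 CPM in cells with 40 or more counts.

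Read the other way, MYCN stood at 222 CPM in the 124 induced cells with a MYC count and 454 CPM in the 438 cells without, a ratio of 0.488 (0.462 to 0.516). In control cells the levels were 343 CPM in 25 cells and 494 CPM in 741 cells, a ratio of 0.693 (0.630 to 0.761). The 23 induced cells with at least 4 MYC counts had a median MYCN level of 75.5 CPM, and 16 of them had a MYCN count. The cells with a MYC count were not shallower, with a median total of 133516 before thinning against 122928.

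The induced cells without a MYCN count and those with 40 or more also differed in other genes. VIM (vimentin, an intermediate filament of mesenchymal cells) stood at 4123 CPM in the 32 induced cells with no MYCN count and 1092 CPM in the 72 cells with 40 or more. CHGA, a secretory granule protein, stood at 54.8 and 635 CPM in the same bins. PHOX2A, an adrenergic factor, was present in both bins, at 682 and 852 CPM, and 31 of the 32 cells without MYCN had a PHOX2A count. The nuclear RNA MALAT1 stood at 9603 and 4678 CPM, and the cells without MYCN had a median total of 89967 before thinning against 124339 over all induced cells. Lower limits on mitochondrial percent and MALAT1 were set at the 5th percentile of control cells, so they left out no cell for high MALAT1. Under these limits, MYC stood at 23.8 CPM in 42 induced cells with 0 to 3 MYCN counts. It was 3.97 CPM in 152 cells with 20 or more. In G1 cells alone the levels were 29.9 CPM in 63 and 3.86 CPM in 137 cells. The part of depth in the pattern was not tested.

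Many of these cells fell in 1 cluster. The cells of both libraries were clustered without the 8 genes into 7 groups, and cluster 4 held 123 induced and 26 control cells. Its induced cells carried 487 of the 803 induced MYC counts (60.6%), at 26.7 CPM, and had ANXA1, a membrane-binding protein, at 89.3 CPM and VIM at 2811 CPM. MYC in its 26 control cells stood at 0.476 CPM, from 1 count. MYC was not limited to this cluster: in the cells outside it the levels were 5.09 CPM in induced and 0.965 CPM in control cells, a log2 ratio of 1.63 in place of 2.49. The step of MYC with MYCN was also smaller outside it. Of the 71 MYC counts in cells without MYCN, 3 lay outside the cluster, in 12 cells at 4.72 CPM (0.973 to 13.8). The level there was 8.71 CPM (4.50 to 15.2) in 26 cells with 1 to 3 MYCN counts, 9.18 CPM (6.43 to 12.7) in 74 cells with 4 to 9, 4.05 CPM in 149 cells with 10 to 19, 4.01 CPM in 141 cells with 20 to 39 and 0.599 CPM (0.0725 to 2.16) in 63 cells with 40 or more. Outside the cluster, the highest step was not seen, and the intervals of the 3 lowest bins overlapped. Pooled, MYC stood at 7.45 CPM in 38 cells with 0 to 3 MYCN counts and 2.96 CPM in 204 cells with 20 or more, against 28.7 and 3.77 CPM over all induced cells. The ratio of MYCN between induced cells with and without a MYC count was 0.603 outside the cluster.

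MAX (ENSG00000125952.20), the shared partner of every MYC and MXD protein, was the member with the highest positive log2 ratio among the 5 measured. It stood at 45.8 CPM in induced (3684 counts) and 39.2 CPM in control cells (3739 counts), a ratio of 1.17 (1.12 to 1.22). The difference was seen in G1 cells, at 48.6 and 37.9 CPM (1.28, interval 1.12 to 1.47), and not beyond counting error in S phase (0.910, 0.714 to 1.15) or G2M cells (1.03, 0.904 to 1.17). In cluster 4 the MAX level was 58.1 CPM in induced and 55.7 CPM in control cells. Of the induced cells, 86.8% had a MAX count at fixed depth, and of the control cells 85.1%. The correlation of MAX with MYCN over cells was 0.04 in 562 induced and 0.07 in 766 control cells, which is too weak to read in such counts.

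Among the repressors, MXI1 (ENSG00000119950.21) had nearly equal library levels and unequal levels in G1 cells. It stood at 22.3 CPM in induced and 22.5 CPM in control cells, a ratio of 0.993, and the sign of its log2 ratio turned under 6 of 10 alternatives. In G1 cells it stood at 25.05 CPM in induced and 37.0 CPM in control cells, a ratio of 0.678 (0.583 to 0.788), while in S phase (22.8 and 23.8 CPM) and G2M cells (18.8 and 16.9 CPM) the intervals of the ratio held 1. In control cells the level in cycling cells was 0.515 times that in G1 (0.447 to 0.594), and in induced cells 0.785 times (0.666 to 0.922). The induced library held more G1 cells, 61.4% against 19.2%, so the library levels mix different shares of phases.

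MNT (ENSG00000070444.15), a repressor expressed in cycling and resting cells alike, stood at 10.3 CPM in induced (831 counts) and 12.5 CPM in control cells (1191 counts), a ratio of 0.828 (0.757 to 0.905). Within each phase the interval of its ratio held 1: 0.790 (0.619 to 1.01) in G1, 0.994 in S and 0.972 in G2M. MXD1 (ENSG00000059728.11), a repressor linked to differentiation, stayed under the filter at 6.48 CPM (521 counts) and 5.99 CPM (571 counts), a ratio of 1.08 (0.960 to 1.22). MLX (ENSG00000108788.11) stood at 55.4 and 52.9 CPM, a ratio of 1.05 (1.00 to 1.09), and had a count in 90.9% of induced and 93.3% of control cells. It was somewhat higher in cycling than in G1 cells in both libraries, by 1.19 times (1.07 to 1.31) in induced and 1.14 times (1.02 to 1.28) in control cells.

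MYCN was compared across the cell cycle because the libraries differed in phase. Phase scores at fixed depth called 345 induced cells G1, 48 S and 169 G2M, and 147 control cells G1, 188 S and 431 G2M. In induced cells MYCN stood at 412 CPM in G1, 475 CPM in S and 364 CPM in G2M cells. In control cells the levels were 576, 588 and 417 CPM. MYCN was lowest in G2M cells of both libraries and lower in induced than in control cells of each phase, by a ratio of 0.714 (0.688 to 0.742) in G1, 0.808 (0.759 to 0.860) in S and 0.873 (0.838 to 0.908) in G2M. The ratio over all cells at fixed depth was 0.823 (0.804 to 0.842). S over G1 was 1.15 (1.09 to 1.23) in induced and 1.02 (0.982 to 1.06) in control cells. These intervals leave out the spread between cells, and the induced S level rests on 48 cells. The ratio of cycling to G1 cells was 0.943 (0.909 to 0.979) in induced cells, and the log2 ratio of -0.08 turned to 0.03 when phases were called without thinning. In control cells it was 0.813 (0.787 to 0.841). Of the 32 induced cells without MYCN, 28 were called G1.

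MYC by phase went with G1 in the induced library: 12.4 CPM in G1, 3.54 CPM in S and 6.48 CPM in G2M cells. The ratio of cycling to G1 cells was 0.471 (0.353 to 0.622). In control cells the levels were 1.03, 0.401 and 1.31 CPM, from 8, 4 and 30 counts, and the interval of the ratio (0.459 to 2.52) held 1. Induced cells were higher than control cells in each phase, by 12.04 times (6.01 to 28.2) in G1, 8.81 times (2.46 to 39.2) in S and 4.93 times (3.12 to 7.94) in G2M.

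VIM itself was 8.27 times as high in the induced library, at 1510 against 182 CPM. Cells were called VIM-high above the 95th percentile of control cells, at 48.75 counts or 920 CPM, which is a range of a continuous value and not a cell type. This took 304 of 562 induced and 39 of 766 control cells, with 88 and 33 cells within 20% of the threshold. In induced cells MYCN stood at 373 CPM in VIM-high and 437 CPM in other cells, a ratio of 0.854 (0.824 to 0.885), and 28 of the 304 VIM-high cells had no MYCN count against 4 of the 258 others. In control cells the order was the opposite, 700 against 478 CPM, a ratio of 1.46 (1.39 to 1.54). The control value rests on few cells: without the 3 VIM-high cells richest in MYCN it was 570 CPM in the remaining 36. The interaction between library and VIM level was not tested.

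By quartiles of VIM within the induced library, MYCN stood at 450, 477, 417 and 265 CPM from the lowest to the highest quartile, so the lower level lay in the cells with the most vimentin, where VIM averaged 4005 CPM. Above the 99th percentile of control VIM, 95 induced cells had MYCN at 235 CPM against 437 CPM in the other 467. MYC went the other way, at 4.09, 5.33, 7.84 and 22.3 CPM over the same quartiles. MYC in VIM-high over other induced cells had a ratio of 3.16 (2.38 to 4.26), and 3.27 (2.23 to 4.94) within G1 cells. MXI1 had the same order as MYCN in both libraries: it stood at 20.9 CPM in VIM-high and 25.4 CPM in other induced cells (0.824, 0.707 to 0.960) and at 47.9 and 21.1 CPM in control cells (2.27, 1.82 to 2.80). MNT, MXD1 and MLX had intervals of this ratio that held 1 in both libraries. MAX was at 46.8 and 41.2 CPM in induced cells (1.13, 1.02 to 1.27), and within G1 the interval held 1.

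MYCN was also lower in cells with more HRAS. HRAS, the gene the construct encodes in mutant form, was at 161 CPM over all induced and 109 CPM over all control cells. In induced cells with 0 to 3 HRAS counts (69 cells) MYCN stood at 625 CPM, in those with 4 to 9 (300 cells) at 415 CPM and in those with 10 or more (193 cells) at 304 CPM. The ratio of the highest to the lowest bin was 0.486 (0.461 to 0.514). Control cells showed a smaller step, 560, 471 and 439 CPM in 184, 507 and 75 cells, a ratio of 0.784 (0.742 to 0.827). Within G1 the induced levels were 683 CPM in 40 cells with 0 to 3 counts and 290 CPM in 133 cells with 10 or more, and outside cluster 4 they were 575 and 326 CPM. The control levels within G1 were 697 CPM in 55 cells and 439 CPM in only 7 cells. That is a log2 ratio of -0.67 in place of -0.35, so the control step was larger within G1. Outside cluster 4 the control levels were 542 and 439 CPM. MYC did not follow HRAS in induced cells, at 10.9, 9.87 and 9.39 CPM (0.858, 0.588 to 1.27). MXI1 stepped down with HRAS in both libraries, from 31.7 to 19.6 CPM in induced and from 29.5 to 16.4 CPM in control cells. MNT did so too, from 15.6 to 10.7 CPM in induced (0.684, 0.492 to 0.959) and from 14.0 to 9.31 CPM in control cells (0.663, 0.448 to 0.959). The correlation of MYCN with HRAS over cells was -0.21 in induced and -0.06 in control cells.

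**Figure D4:**
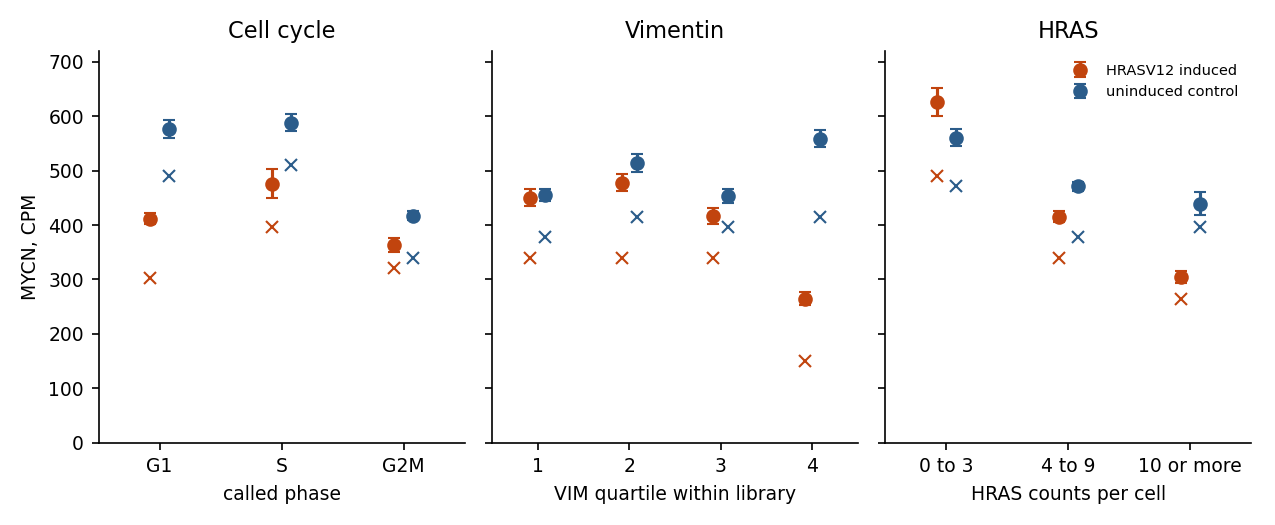
MYCN in CPM by called cell cycle phase, by quartile of VIM within each library and by HRAS counts per cell, at 53000 counts per cell; circles are summed levels with exact 95% Poisson intervals and crosses are medians over cells. Induced cells step down from 625 to 304 CPM with HRAS counts and are lowest, at 265 CPM, in the highest VIM quartile, while control cells are highest in their highest VIM quartile, at 559 CPM.

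By cluster, MYCN ranged from 309 CPM in cluster 4 to 506 CPM in cluster 0 among induced cells. Cluster 6, with 274 induced and 3 control cells, stood at 440 CPM, cluster 1 at 415 CPM in 42 induced cells, cluster 2 at 398 CPM in 24, cluster 3 at 360 CPM in 8 and cluster 5 at 353 CPM in 114. Cluster values use all cells with all counts kept, without thinning. In cluster 4 the induced mean hid a wide spread, with a median over cells of 115 CPM and a 95th percentile of 938 CPM. Of its 123 induced cells, 82.9% had a MYCN count, against 93.2% of all 666 induced cells. The 26 control cells of this cluster stood at 937 CPM. Cluster 0, with 291 control cells, and cluster 1, with 338, had control levels of 559 and 475 CPM.

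From cell to cell, MYCNOS went most closely with MYCN. The smaller of the 2 within-library Pearson correlations on log2(1 + counts) was highest, among 2647 genes with at least 50 CPM in both libraries, for MYCNOS (0.57 in 562 induced and 0.43 in 766 control cells), NME1 (0.35 and 0.35), COA4 (0.34 and 0.33), DKC1 (0.32 and 0.36) and NOP16 (0.30 and 0.34). NME1 is a nucleoside diphosphate kinase, DKC1 the pseudouridine synthase of box H/ACA particles, NOP16 a nucleolar protein and COA4 a mitochondrial assembly factor. The most negative values were those of TAX1BP1 (-0.29 and -0.20), an autophagy receptor, SELENOK (-0.20 and -0.22), a selenoprotein of the endoplasmic reticulum, and UBXN4 (-0.24 and -0.20), a factor of protein degradation there. VIM stood at -0.25 and 0.04, and MXI1 at 0.30 and 0.23. Cells of a library share its preparation and mix of phases, so these values describe the libraries only. MYCNOS overlaps MYCN on the opposite strand, and the use of strand in counting is not stated, so their counts may not be independent.

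Genes near MYCN on its chromosome can share its amplified segment, and those listed here differed in direction between the libraries. MYCNOS stood at 117 CPM in induced and 85.5 CPM in control cells (ratio 1.37, 1.33 to 1.41) and the noncoding GACAT3 at 42.6 and 27.1 CPM (1.57, 1.496 to 1.66), while MYCN had a ratio of 0.826. DDX1, an RNA helicase often amplified with MYCN, stood at 158 and 224 CPM (0.706, 0.691 to 0.722). Over the induced cells from 0 to 40 or more MYCN counts, GACAT3 went from 4.13 to 71.5 CPM and MYCNOS from 11.8 to 141 CPM, while DDX1 went only from 156 to 191 CPM. Of 20 genes listed around MYCN, 17 were found, up to 4761 kb away, and 12 passed the filter. Of these, 2 were at least 1.5-fold higher, GACAT3 and TRIB2 (80.1 and 29.8 CPM), a pseudokinase 3224 kb away. The 2 at least 1.5-fold lower were GEN1 and SMC6, both DNA repair factors, 1813 and 1723 kb away. The median log2 ratio of the 12 genes was -0.29 against -0.04 over all measured genes. The extent of the amplified segment was not measured. Of all measured genes, 10.3% were higher and 7.73% lower.

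The other partners and cofactors of the network leaned lower. Of 22 genes listed, 19 passed the filter, 0 were at least 1.5-fold higher and 4 lower, beside 10.3% and 7.73% of all measured genes, and 18 had a log2 ratio below 0, against 53.6% of all measured genes. The median was -0.20. The lowest were HDAC1, a deacetylase of repressor complexes (25.5 and 48.3 CPM, log2 ratio -0.89), and MXD3, the MXD member tied to S phase (14.0 and 24.5 CPM, -0.77). The highest were MYCNOS at 0.45 and MYCBP2, a ubiquitin ligase that binds MYC, at -0.01 (89.0 and 89.5 CPM).

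Genes for factors that set the stability of MYCN protein were also mostly lower. Of 15 listed, 14 were found and 13 measured, with 0 higher, 5 lower and a median of -0.40, beside 10.3% higher, 7.73% lower and a median of -0.04 over all measured genes. The lowest were USP28, a deubiquitinase that counters FBXW7 (9.87 and 21.5 CPM, -1.05), and SKP2, a ubiquitin ligase subunit of the cell cycle (36.9 and 75.8 CPM, -1.02). AURKA, the mitotic kinase that shields MYCN from degradation, stood at 33.3 and 61.4 CPM (-0.86). The highest were GSK3B, the kinase that marks MYC proteins for degradation (114 and 76.2 CPM, 0.57), and FBXW7, the ligase subunit that reads that mark (30.2 and 22.8 CPM, 0.39), both within 1.5-fold. These are RNA levels, and MYCN protein was not measured. Of the cell cycle lists, 32 of 40 measured S phase genes and 44 of 54 G2M genes were at least 1.5-fold lower, and AURKA is in the latter list.

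Genes that MYC proteins are known to activate had list medians slightly below that of all genes. All 25 ribosome biogenesis genes were measured, with 0 higher, 3 lower and a median of -0.25 against -0.04 over all measured genes. With DESeq2 size factors the list median was -0.10 and that of all measured genes 0.13. Over all measured genes 10.3% were higher and 7.73% lower, so the count of lower genes in this list is near the background. Of the 25 genes, 21 had a log2 ratio below 0, against 53.6% of all measured genes. The lowest were FBL, the rRNA 2′-O-methyltransferase (93.3 and 162 CPM, -0.79), and NCL, nucleolin (654 and 1054 CPM, -0.69). The highest were IMP4 (75.3 and 57.7 CPM, 0.38) and RRP12 (19.6 and 15.4 CPM, 0.33), both needed for processing of ribosomal RNA. UTP20, of the small subunit processome, stood at 23.4 and 36.5 CPM (-0.62). Of the 20 genes of this list with a listed promoter, 10 held CACGTG, against 8.77% of all genes with one. FBL, UTP20 and IMP4, with sites printed above, were among the 10, so the site was present at both ends of the list.

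Among 34 metabolism and growth targets, 31 were measured, with 1 higher, 7 lower and a median of -0.23, beside the same 10.3% and 7.73% of all measured genes. A log2 ratio below 0 was found for 22 of the 31, against 53.6% of all measured genes. CDC25A, a phosphatase that activates cyclin-dependent kinases (9.16 and 20.2 CPM, -1.06), and CCNE1, cyclin E1 (5.60 and 11.7 CPM, -0.94), were the lowest. SLC3A2, the heavy chain of amino acid transporters (157 and 86.8 CPM, 0.84), and SRM, spermidine synthase (452 and 385 CPM, 0.23), were the highest. HSPD1, the mitochondrial chaperonin, stood at 795 and 1225 CPM (-0.62). ODC1, ornithine decarboxylase and a classical E-box target, stood at 462 and 453 CPM (0.03). The E-box was found in 14 of 29 promoters (48.3%), against 8.77% of all genes with a listed promoter.

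Genes that MYC proteins are known to repress had a median above that of all genes. Of 22 listed, 14 were measured, with 6 at least 1.5-fold higher, 1 lower and a median of 0.55, beside 10.3% higher, 7.73% lower and a median of -0.04 over all measured genes. Among the higher genes, DKK3, a secreted protein of the Dickkopf family, stood at 22.7 and 9.68 CPM (1.15). The lowest were PDGFRB, a growth factor receptor (6.46 and 16.3 CPM, -1.21), and CDKN1B, the p27 inhibitor of cyclin-dependent kinases (33.9 and 36.2 CPM, -0.09). CDKN1A, the p21 inhibitor, stood at 29.5 and 21.0 CPM (0.47). Of 13 promoters, 1 held the E-box (7.69%), beside 8.77% of all genes with a listed promoter.

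The MLX branch had few measured targets. Of 8 MLX target genes, 4 were measured and none passed 1.5-fold, with a median of 0.07. G6PC3, a glucose 6-phosphatase, stood at 126 and 87.4 CPM (0.52), ARRDC3, an arrestin, at 13.6 and 12.2 CPM (0.15), KLF10 at 16.6 and 16.7 CPM (-0.01) and TXNIP, the thioredoxin-binding protein that reports glucose entry, at 17.7 and 18.8 CPM (-0.08). The E-box was found in 5 of 7 promoters (71.4%), G6PC3 among them, against 8.77% of all genes with a listed promoter. The target lists were drawn from general knowledge of MYC and MLX targets. What part that choice had in their E-box shares was not tested. None of these lists was tested against other genes. The S phase and G2M genes were lower in the same comparison, with medians of -0.86 and -0.80, and their part in the list values was not tested.

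**Figure D5:**
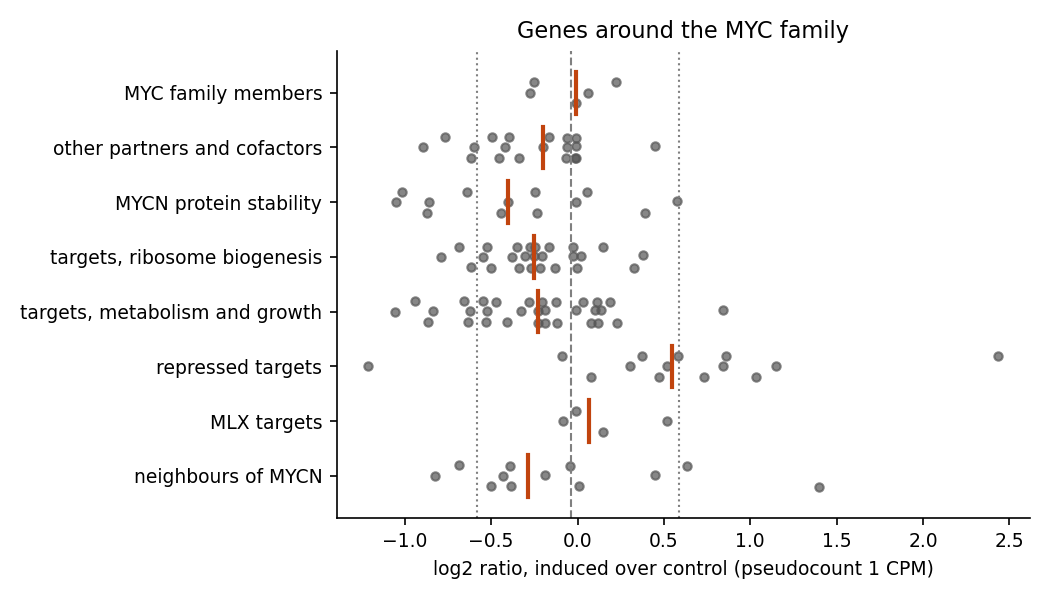
Log2 ratio of the induced over the control library for each measured gene of each list (points, spread vertically for legibility), with the list median as a bar; the dashed line is the median of all 9017 measured genes and the dotted lines mark 1.5-fold. The repressed targets lie mostly to the right, with a median of 0.55, and the stability, network and activated target lists mostly to the left.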

How the data were processed

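Droplet libraries (10x Genomics Chromium, 3' chemistry) of 1 induced and 1 control culture were analysed, per the labels. The deposited table holds counts per gene and cell. Kallisto and bustools made it, per the submitters' processing notes; the genome build is not stated in the sources used here. The deposited cell annotation gives each cell's library and the percent of mitochondrial counts, per the file headers, and marks all 1622 cells as singlets. Column sums differed from the annotated totals by at most 192.

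Counts were summed per library and scaled to CPM, with exact Poisson, conditional and Clopper-Pearson intervals at 95%. No test was run: cells are not replicates. Thinning used 53000 counts per cell, and 104 induced and 190 control cells were too shallow. Phase scores came from scanpy 1.11.5, and clusters found by the Leiden method (igraph 0.11.9, 2000 variable genes without the members, 30 components, 15 neighbours, resolution 0.5). edgeR 4.0.16 and DESeq2 1.42.0 gave scaling factors only. The calculations were tested on simulated data.

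Members, lists and comparisons were chosen with earlier results of these data known. Beside the members, HRAS and VIM, the rule named the 2 highest and 2 lowest measured genes of each list and the 5 genes most and 3 least like MYCN. Some genes the rule names are not reported here. AURKA, CHGA, PHOX2A, MALAT1, ANXA1, DDX1, UTP20, HSPD1, ODC1, CDKN1A, THY1 and EGFL7 were named after their values were seen. So were ESAM, CDH5, KDR, PECAM1, VWF and CLDN5. Alternatives were other scalings, cell and gene filters, pseudocounts, thinning, phase rules and VIM thresholds. Cells outside cluster 4, and leaving out the cells richest in MYC or MYCN, were chosen after seeing the data. Also not planned beforehand were G1 cells and the limits on mitochondrial percent and MALAT1 for MYC by MYCN count and MYCN by HRAS count. The same holds for unthinned counts for MYC by MYCN count.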

Additional observations from a re-analysis of the deposited data

How the results depend on the processing

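No paired analysis was possible because there was 1 library per group, and for the same reason no replicate could be left out. MYCN kept its lower level in the induced library under all 12 alternatives: its log2 ratio of -0.28 became -0.16 with TMM scaling, -0.12 with DESeq2 size factors, -0.37 with totals without ribosomal protein and mitochondrial genes, -0.35 with the mean of per-cell CPM, -0.19 in the 406 induced and 871 control cells above limits on mitochondrial percent and MALAT1, -0.15 outside cluster 4 and -0.33 without the 10 MYCN-richest cells of each library. The same scalings moved the median of all measured genes from -0.04 to 0.08 with TMM, 0.13 with DESeq2 and -0.14 without ribosomal protein and mitochondrial genes, and the shares of genes higher and lower from 10.3% and 7.73% to 14.3% and 5.04%, 16.3% and 4.12%, and 8.36% and 12.3%. MYC stayed higher, with a log2 ratio of 3.26 at a pseudocount of 0.1 CPM, 1.33 at 5 CPM and 1.63 outside cluster 4. The count of members past 1.5-fold was 1, MYC, with TMM, with DESeq2, without ribosomal protein and mitochondrial genes, with the mean of per-cell CPM and with no filter.

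Signs turned for members close to equal. MXI1 went from -0.01 to 0.10 with TMM, 0.14 with DESeq2, 0.038 without the cells with the most counts, 0.012 without those with the fewest, 0.030 with thinned cells and 0.19 under the limits on mitochondrial percent and MALAT1. MLX went from 0.06 to -0.028 without ribosomal protein and mitochondrial genes and -0.0039 with thinned cells. MYCL, with 15 counts in all, went from 0.0043 to -0.0040 without ribosomal protein and mitochondrial genes, -0.0084 without the cells with the most counts and -0.033 without those with the fewest. The median of MLX targets went from 0.07 to -0.10 without ribosomal protein and mitochondrial genes, and that of ribosome biogenesis targets from -0.25 to -0.10 with DESeq2.

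MYCN in cycling over G1 cells had a log2 ratio of -0.08 in the induced library, 0.032 with phases called on unthinned cells and -0.18 under the limits, and of -0.30 in the control library, -0.23 unthinned. MYCN in VIM-high over other cells had -0.23 in the induced library, -0.89 at the 99th percentile, -0.15 under the limits, -0.28 in G1 cells and -0.36 without the 3 MYCN-richest VIM-high cells. In the control library it had 0.55, then 0.25, 0.68, 0.44 and 0.25 in the same order. The control values rest on few VIM-high cells: 39, then 8, 33, 24 and 36. The induced values rest on 304, then 95, 172, 227 and 301. MYC in induced cells with 0 to 3 over 20 or more MYCN counts went from 2.93 to 1.33 outside cluster 4. The cause of these shifts was not tested. Depth limits MYC in control cells, with 91 counts, and MYCL in both libraries.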
